A study of Mus musculus with 33 samples.

Results

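The 10 genes described here are Atf4 and genes that it and its partners are known to control, or that work beside them: the transcription factors Atf4, Ddit3 (CHOP) and Atf5, the stress effectors Asns, Trib3, Chac1 and Sesn2, and Phgdh, Psat1 and Shmt2 of serine and glycine synthesis. They were taken by name, with earlier results of these data known, so shares of all genes set beside their counts are descriptions. Ensembl IDs were matched to mouse symbols, and all 10 are among the 14717 genes of the deposited RNA table. RNA was measured in 15 libraries of P19, an established line of embryonal carcinoma from the mouse, with 3 libraries in each of 5 groups. D0 is undifferentiated cells kept in maintenance medium at low density. D3RA and D6RA are cells given 1 µM of all-trans retinoic acid, by which this line is turned into neurons, and taken at day 3 or day 6. D3DMSO and D6DMSO were given 1% dimethyl sulfoxide instead, which turns the line into mesoderm and heart muscle. Both treated routes began as embryoid bodies, floating cell aggregates, and then went to culture flasks, so comparisons with D0 also hold the change of culture, which cannot be told apart from the treatment. No group of embryoid bodies without either agent is among the samples. The design text calls the 3 libraries of a group biological replicates and does not mention separate cultures. P-values therefore measure the spread between these libraries, which may be technical.

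ATF4 is the transcription factor at the end of the integrated stress response. When amino acids run short, the endoplasmic reticulum holds unfolded protein, haem is lacking or a virus is present, a kinase for each signal phosphorylates the translation factor eIF2, which slows protein synthesis as a whole but lets Atf4 mRNA be translated through its upstream open reading frames. ATF4 protein then pairs with C/EBP factors on composite sites and raises genes for amino acid synthesis, uptake and tRNA charging, and, under lasting stress, genes such as Ddit3, Trib3 and Chac1 that go with cell death. Much of the control of ATF4 is therefore on translation, which RNA levels do not show. Serine synthesis by PHGDH and PSAT1, followed by SHMT2 in mitochondria, feeds glycine and one-carbon units to nucleotide synthesis, on which fast-growing embryonic cells depend.

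The promoters shown next are those of the 3 members that differed most between D3DMSO and D0 (Chac1, Trib3 and Asns), with that of Phgdh, which differed least. They are RefSeq sequences of build GRCm38.p6, 250 bases before to 50 bases after the annotated start, written 5′ to 3′ on the strand of the gene. All 10 members had a promoter there. Capitals mark matches, on either strand, to TGATGNAA, a core of the composite C/EBP-ATF site. The windows are chr2:119350992-119351291, plus strand for Chac1, chr2:152344011-152344310, minus strand for Trib3, chr6:7693160-7693459, minus strand for Asns and chr3:98339920-98340219, minus strand for Phgdh.
Chac1: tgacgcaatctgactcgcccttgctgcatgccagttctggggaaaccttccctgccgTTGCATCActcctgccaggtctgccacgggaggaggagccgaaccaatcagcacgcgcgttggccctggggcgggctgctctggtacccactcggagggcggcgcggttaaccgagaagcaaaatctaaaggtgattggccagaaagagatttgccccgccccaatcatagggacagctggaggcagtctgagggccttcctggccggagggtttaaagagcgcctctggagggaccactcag
Trib3: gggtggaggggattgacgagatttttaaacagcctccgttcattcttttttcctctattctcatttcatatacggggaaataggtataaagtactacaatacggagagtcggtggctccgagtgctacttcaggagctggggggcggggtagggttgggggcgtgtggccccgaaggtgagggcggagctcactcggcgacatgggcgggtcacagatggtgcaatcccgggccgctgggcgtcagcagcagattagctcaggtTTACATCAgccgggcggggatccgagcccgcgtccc
Asns: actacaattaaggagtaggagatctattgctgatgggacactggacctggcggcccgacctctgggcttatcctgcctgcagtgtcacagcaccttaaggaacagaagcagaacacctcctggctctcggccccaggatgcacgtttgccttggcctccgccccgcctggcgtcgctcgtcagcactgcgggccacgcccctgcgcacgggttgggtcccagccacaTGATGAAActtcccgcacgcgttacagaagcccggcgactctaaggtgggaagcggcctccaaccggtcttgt
Phgdh: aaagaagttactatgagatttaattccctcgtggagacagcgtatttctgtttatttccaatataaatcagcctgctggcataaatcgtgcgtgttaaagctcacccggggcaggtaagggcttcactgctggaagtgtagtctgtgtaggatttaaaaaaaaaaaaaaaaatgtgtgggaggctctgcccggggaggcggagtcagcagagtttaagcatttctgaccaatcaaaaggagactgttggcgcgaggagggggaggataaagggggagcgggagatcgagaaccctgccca

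Counted with the start as 0, the matches lie at -193 to -186 in Chac1, 14 to 21 in Trib3 and -23 to -16 in Asns. The other 7 members had none in this window. Of 10355 genes of the deposited table with a RefSeq promoter, 269 (2.6%) had a match. No member had CACGTG, the E-box of MYC and its relatives (11.6% of the genes), also searched on both strands. A match is a stretch of letters and not a measured binding site, and none says only that these letters are not in the window.

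The D0 libraries hold 7.13 to 9.88 M counts each; the range for D3DMSO is 5.86 to 6.87 M, for D3RA 3.55 to 9.82 M, for D6DMSO 39.0 to 44.5 M and for D6RA 38.2 to 49.6 M. The 11 mitochondrial genes of the table had 0 counts in the 9 libraries of D0 and D3 and took 41.6 to 55.8% of the counts at day 6, so the day 6 and day 3 libraries differ in more than the day. In D0 and D3, Lars2 and 3 other features took a share of the non-mitochondrial counts that ran from 1.97 to 45.7%, with the lowest and the highest both in D3RA. Levels below are in CPM, counts scaled to library sizes that follow the authors' own scaling. They are not divided by gene length, so they are compared between groups and not between genes. Differences are log2 values with the standard error (SE) from limma, and a gene is called where its Benjamini-Hochberg adjusted p over all 14717 genes is under 0.05. RNA of a culture is a mean over its cells, in which fewer cells of a type and less RNA per cell cannot be told apart.

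The 10 genes stood higher with DMSO than with retinoic acid at day 3. Of the 10, 9 were called higher in D3DMSO than in D0, where 28.2% of all 14717 genes were called higher. Against the same D0 libraries, 8 of 10 were called lower in D3RA, beside 33.9% of all genes. All 10 were called lower in D3RA than in D3DMSO (31.4% of all genes), by 1.69-fold for Ddit3 to 14.7-fold for Chac1. At day 6, 4 of 10 were called lower in D6RA than in D6DMSO, beside 33.1% of all genes, and the treatment difference moved up from that of day 3 for 9 of the 10 by the interaction test (25.4% of all genes). D3RA held the lowest mean of the 5 groups for each gene, though for Ddit3 it was level with D0. The plot of levels by library shows these patterns gene by gene.

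**Figure D1:**
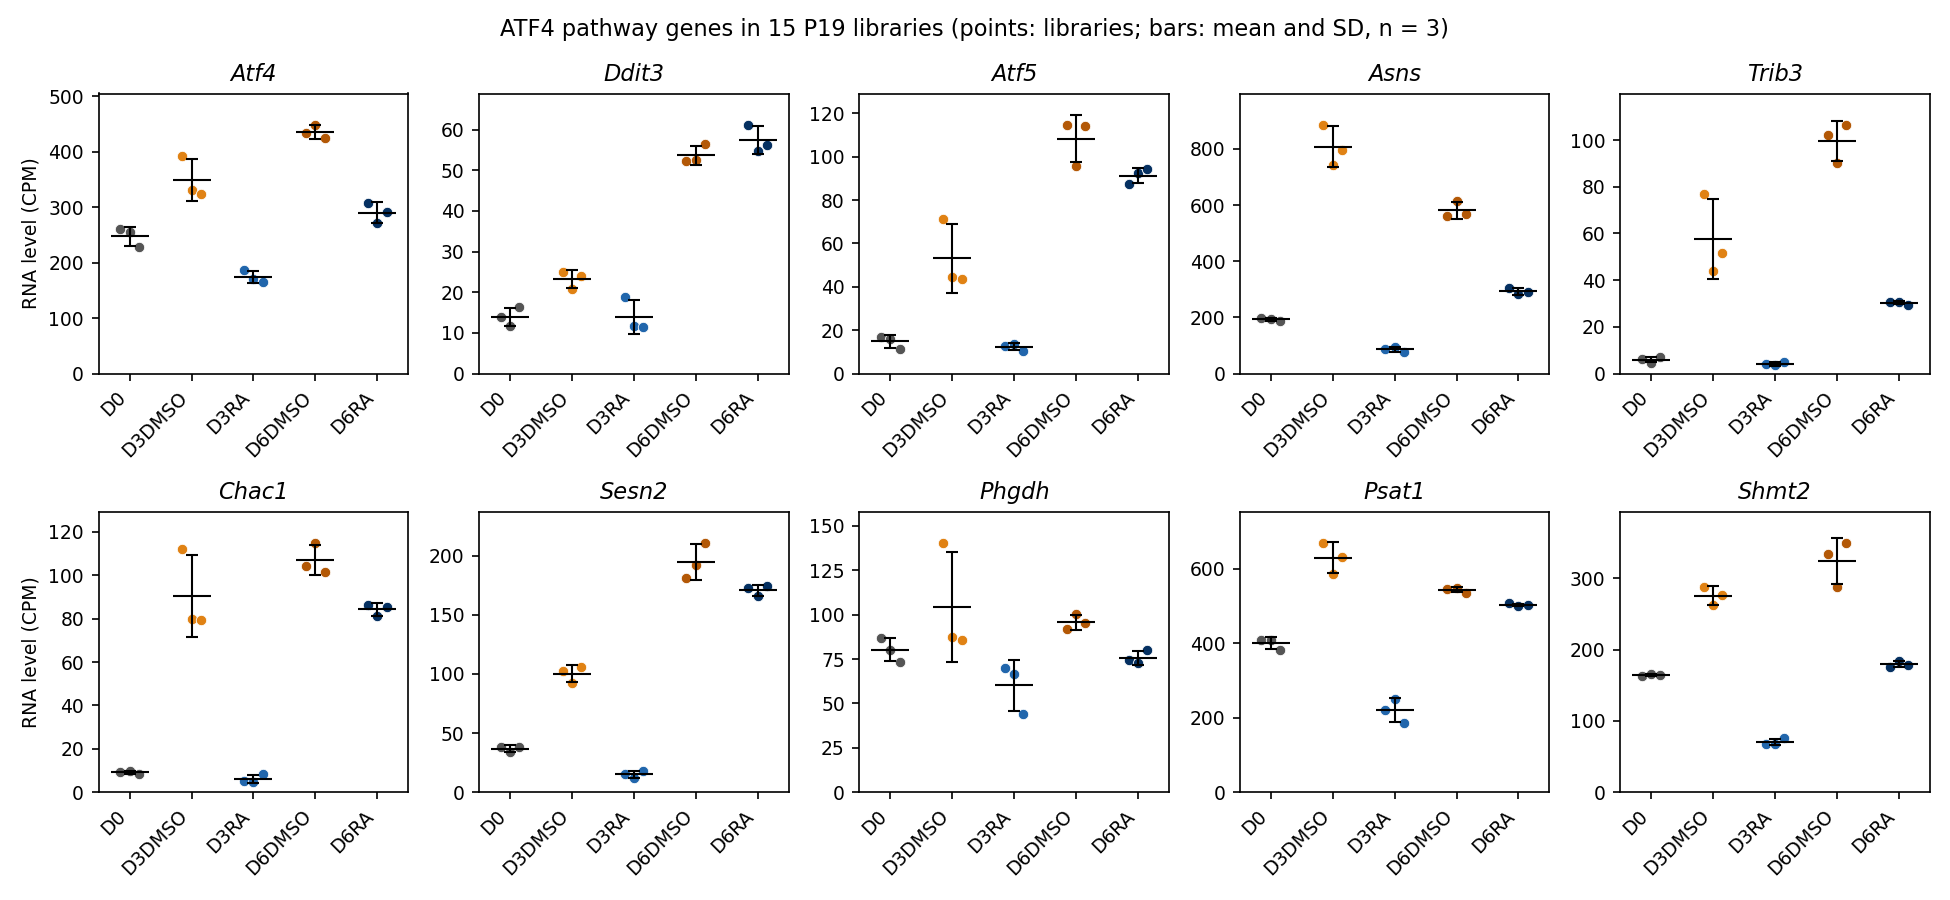
RNA level of each of the 10 genes in CPM (vertical axis, linear from 0, its own scale per gene) in the 5 groups (horizontal axis). Points are libraries and bars the mean and SD of 3. D3RA has the lowest mean for each gene (for Ddit3 level with D0), and the points of D3DMSO lie above all points of D3RA in each panel.

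Atf4 (ENSMUSG00000042406), the transcription factor that drives the response, spanned the narrowest range of the 3 factors, 2.50-fold between its highest and its lowest group mean. In D0 its level was 259.9, 254 and 227 CPM in the order of replicates 1 to 3, in D3DMSO 393, 331 and 324 CPM and in D3RA 186, 171 and 166 CPM. The day 6 values were 433, 449 and 425 CPM in D6DMSO and 308, 271 and 291 CPM in D6RA. No group overlapped its neighbour, and the order from high to low was D6DMSO, D3DMSO, D6RA, D0 and D3RA. It rose in D3DMSO (0.49 ± 0.08, adjusted p = 7.11e-05) and fell in D3RA (-0.50 ± 0.08, adjusted p = 3.64e-05) against D0, by about the same size in opposite directions. D3RA was 2.0-fold lower than D3DMSO (-1.0 ± 0.08, adjusted p = 1.70e-08), and D6RA 1.50-fold lower than D6DMSO (-0.59 ± 0.08, adjusted p = 6.80e-06).

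Ddit3 (ENSMUSG00000025408) encodes CHOP, a partner of C/EBP proteins that appears late in the response and promotes cell death. The D0 libraries held 13.9, 11.8 and 16.3 CPM, those of D3DMSO 24.9, 20.7 and 24.0 CPM and those of D3RA 18.8, 11.7 and 11.4 CPM. D6DMSO had 52.3, 52.4 and 56.4 CPM and D6RA 61.2, 54.7 and 56.1 CPM. The libraries of D3RA and D0 overlapped, those of D3DMSO lay above both, and the day 6 libraries of either treatment lay above every earlier one. Ddit3 rose in D3DMSO (0.74 ± 0.16, adjusted p = 7.24e-04) and was not called in D3RA (-0.02 ± 0.16, adjusted p = 0.919; 95% interval of the difference -0.35 to 0.31). It was the one member whose mean was higher in D6RA than in D6DMSO, with libraries that overlapped (0.09 ± 0.16, adjusted p = 0.617; 95% interval -0.24 to 0.42), and that sign turned under quantile normalization (-0.018). The span of Ddit3 in RefSeq overlaps those of Mbd6 and Mars1, and the sources used here do not say whether counting used the strand.

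Atf5 (ENSMUSG00000038539) encodes a relative of ATF4 whose mRNA is translated under the same control. Its RNA was measured at 17.0, 16.0 and 11.5 CPM in D0, at 71.4, 44.3 and 43.5 CPM in D3DMSO and at 12.8, 13.7 and 10.5 CPM in D3RA. By day 6, Atf5 was at 115, 95.7 and 114 CPM in D6DMSO and at 87.3, 92.3 and 94.2 CPM in D6RA. D3DMSO, D6RA and D6DMSO each stood apart, in rising order, and D0 and D3RA overlapped below them. Atf5 rose 3.52-fold in D3DMSO (1.81 ± 0.17, adjusted p = 1.89e-07) and was not called in D3RA against D0 (-0.25 ± 0.17, adjusted p = 0.210). Leaving out D0 replicate 3 gave a call (adjusted p = 0.0416; the 17 alternatives spanned 0.0416 to 0.538). In RefSeq its span overlaps those of Nup62 and Il4i1b.

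Asns (ENSMUSG00000029752) encodes asparagine synthetase and is one of the best known targets of ATF4. Levels of Asns were 197, 196 and 188 CPM in D0, 887, 743 and 797 CPM in D3DMSO and 88.3, 94.5 and 76.7 CPM in D3RA. At day 6 they were 561, 614 and 568 CPM in D6DMSO and 305, 283 and 291 CPM in D6RA. Each of the 5 groups stood apart from the next, as also for Atf4, Sesn2 and Psat1. The share of all genes with this trait is not given here. Groups apart are common, with 58.5% of all genes between D3RA and D3DMSO and 80.3% between D6RA and D6DMSO. The order of the groups for Asns was D3DMSO, D6DMSO, D6RA, D0 and D3RA. Asns rose 4.17-fold in D3DMSO (2.06 ± 0.08, adjusted p = 5.09e-12) and fell 2.24-fold in D3RA (-1.16 ± 0.08, adjusted p = 1.53e-09). The distance between the treatments at day 3 was 9.34-fold (-3.22 ± 0.08, adjusted p = 1.36e-14), and at day 6 1.99-fold (-0.99 ± 0.08, adjusted p = 1.00e-08). The capitals in its promoter above match on the strand of the gene.

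Trib3 (ENSMUSG00000032715) encodes a pseudokinase that dampens the response and AKT signalling. In D0 its level was 6.26, 4.72 and 7.09 CPM, in D3DMSO 76.9, 44.1 and 51.6 CPM and in D3RA 4.01, 3.58 and 5.02 CPM. The day 6 values were 102, 90.0 and 107 CPM in D6DMSO and 30.8, 30.7 and 29.6 CPM in D6RA. D6DMSO, D3DMSO and D6RA each lay apart, while D0 and D3RA overlapped at the bottom. Trib3 rose 9.34-fold in D3DMSO (3.22 ± 0.18, adjusted p = 3.97e-10). Against D0 it was called lower in D3RA (-0.48 ± 0.18, adjusted p = 0.0284), which 9 of 17 alternatives did not call (adjusted p spanned 0.00644 to 0.201). These include leaving out replicate 1 or 3 of D0 (adjusted p = 0.0767 and 0.129) and replicate 1 or 2 of D3RA (0.0775 and 0.108). Of the 10 genes it kept the largest distance between the treatments at day 6, 3.27-fold lower in D6RA (-1.71 ± 0.18, adjusted p = 3.25e-07).

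Chac1 (ENSMUSG00000027313) encodes an enzyme that breaks down glutathione and is induced through ATF4 and CHOP. The D0 libraries held 9.13, 9.75 and 8.32 CPM, those of D3DMSO 112, 80.0 and 79.3 CPM and those of D3RA 5.28, 4.89 and 8.22 CPM. D6DMSO had 104, 115 and 102 CPM and D6RA 86.5, 81.1 and 85.3 CPM. D3DMSO overlapped both D6DMSO and D6RA, and these 3 groups lay far above D0 and D3RA. Chac1 rose 9.82-fold in D3DMSO (3.30 ± 0.16, adjusted p = 7.55e-11), the largest difference among the 10 genes. It fell in D3RA (-0.58 ± 0.16, adjusted p = 0.00474), which was no longer called once all libraries were thinned to the smallest (-0.75 ± 0.32, with a larger SE; adjusted p = 0.0503, the highest of 17 alternatives, of which the lowest was 4.44e-05). At day 6, libraries of the treatments did not overlap, yet the difference was not called (-0.34 ± 0.16, adjusted p = 0.0751).

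Sesn2 (ENSMUSG00000028893) encodes sestrin 2, a leucine sensor that restrains mTORC1 and is raised by ATF4, p53 and NRF2. Its RNA was measured at 38.5, 33.8 and 38.5 CPM in D0, at 102, 92.2 and 106 CPM in D3DMSO and at 15.8, 12.1 and 17.8 CPM in D3RA. By day 6, Sesn2 was at 181, 193 and 211 CPM in D6DMSO and at 172, 166 and 175 CPM in D6RA. All 5 groups stood apart, with both day 6 groups on top, then D3DMSO, D0 and D3RA. Sesn2 rose 2.71-fold in D3DMSO (1.44 ± 0.11, adjusted p = 1.93e-08) and fell 2.44-fold in D3RA (-1.28 ± 0.11, adjusted p = 2.87e-08). From D3RA to D6RA it was 11.3-fold higher (3.49 ± 0.11, adjusted p = 4.67e-13).

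Phgdh (ENSMUSG00000053398), phosphoglycerate dehydrogenase, the first enzyme of serine synthesis, had the narrowest range of the 10 genes, 1.74-fold between its highest and its lowest group mean. Levels of Phgdh were 86.7, 80.4 and 73.6 CPM in D0, 140.3, 87.2 and 85.8 CPM in D3DMSO and 69.9, 66.8 and 43.8 CPM in D3RA. At day 6 they were 91.8, 100.2 and 95.1 CPM in D6DMSO and 74.3, 72.7 and 80.1 CPM in D6RA. Replicate 1 of D3DMSO stood well above the other 2, which lay at the top of the D0 values. Phgdh was not called in D3DMSO against D0 (0.35 ± 0.17, adjusted p = 0.0947; 95% interval -0.01 to 0.71). It was called without D3DMSO replicate 3 (adjusted p = 0.0406), under voom weights (0.0453) and with a replicate block in the D0 and D3 libraries alone (0.0311), and the 17 alternatives spanned 0.0311 to 0.522. In D3RA it was called lower than in D0 (-0.44 ± 0.17, adjusted p = 0.0303), which 7 of 17 alternatives did not call (adjusted p spanned 0.00651 to 0.205). These include leaving out replicate 1 or 2 of D0 (0.0989 and 0.0659) and replicate 3 of D3RA (0.205). Between the treatments at day 3 it was 1.72-fold lower in D3RA (-0.78 ± 0.17, adjusted p = 7.51e-04). A copy of this gene, Phgdh-ps1, is annotated, and how reads shared with it were counted is not given in the sources used here.

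Psat1 (ENSMUSG00000024640), phosphoserine aminotransferase, carries out the next step. In D0 its level was 409.5, 409.8 and 381 CPM, in D3DMSO 669, 587 and 633 CPM and in D3RA 221, 251 and 187 CPM. The day 6 values were 547, 549 and 536 CPM in D6DMSO and 507, 500.3 and 502 CPM in D6RA. Each group stood apart from the next, with D3DMSO highest and D3RA lowest. Psat1 rose 1.57-fold in D3DMSO (0.65 ± 0.09, adjusted p = 6.93e-06) and fell 1.83-fold in D3RA (-0.87 ± 0.09, adjusted p = 1.18e-07). At day 6 the groups did not overlap, but the difference of -0.11 ± 0.09 was not called (adjusted p = 0.264; 95% interval -0.29 to 0.07).

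Shmt2 (ENSMUSG00000025403), mitochondrial serine hydroxymethyltransferase, turns serine into glycine and a one-carbon unit. The D0 libraries held 164, 165 and 165 CPM, those of D3DMSO 288, 262 and 277 CPM and those of D3RA 68.1, 67.4 and 75.4 CPM. D6DMSO had 335, 288 and 349.6 CPM and D6RA 176, 184 and 179 CPM. D6DMSO and D3DMSO overlapped at the top, D6RA and D0 were apart below them, and D3RA lay well under the rest. Shmt2 rose 1.67-fold in D3DMSO (0.74 ± 0.07, adjusted p = 2.86e-07) and fell 2.34-fold in D3RA (-1.23 ± 0.07, adjusted p = 2.57e-10). It was still 1.80-fold lower in D6RA than in D6DMSO (-0.85 ± 0.07, adjusted p = 2.24e-08). Its RefSeq span overlaps that of Ndufa4l2.

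The comparisons with D0 share its 3 libraries. In either direction, 56.1% of all genes were called in D3DMSO and 68.9% in D3RA, and the median log2 difference of all genes was 0.02 and 0.01, whereas that of the 10 genes was 1.09 and -0.54. The values of the stress effectors and Atf5 were larger in size in D3DMSO (log2 1.44 to 3.30) than in D3RA (-1.28 to -0.25), while Psat1 and Shmt2 had the larger value in D3RA (-0.87 and -1.23, against 0.65 and 0.74); the sizes were not tested against each other. Over 17 alternatives the number called was 9 to 10 higher in D3DMSO and 6 to 8 lower in D3RA. D3DMSO replicate 1 held the highest of the 3 values for 9 of 10 genes. In that library Lars2 and the 3 features named with it took 3.09% of the non-mitochondrial counts, against 32.8 and 24.0% in the other 2; without it 9 genes were still called higher than in D0.

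**Figure D2:**
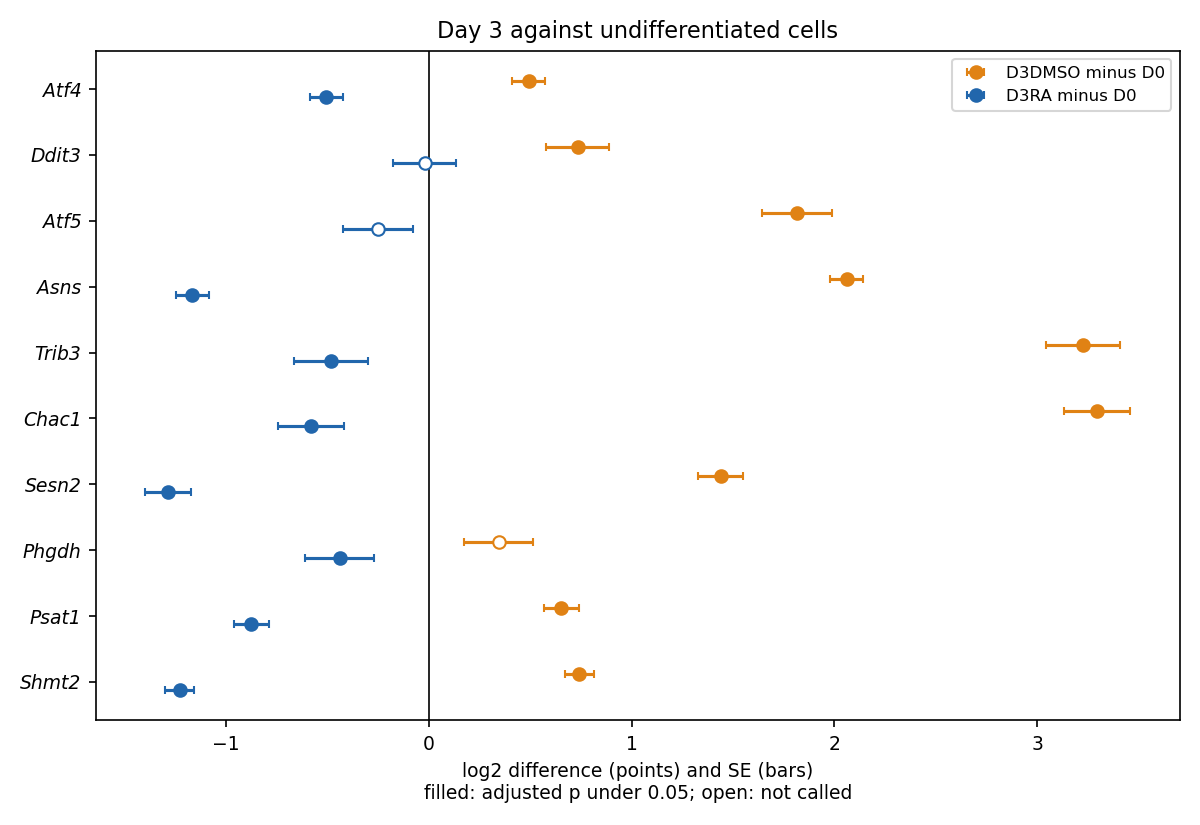
Log2 difference (horizontal axis) of each of the 10 genes (vertical axis) between D3DMSO and D0 (orange) and between D3RA and D0 (blue), with bars of 1 SE; filled points passed an adjusted p under 0.05. The orange points lie to the right of 0, up to 3.30 for Chac1, and the blue points to the left, down to -1.28 for Sesn2.

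Between the treatments at day 3, no member had libraries that overlapped, and the median log2 difference was -2.02, against -0.01 over all genes. Of all genes, 58.5% had libraries that did not overlap. Chac1, Trib3 and Asns stood farthest apart (-3.87 ± 0.16, -3.70 ± 0.18 and -3.22 ± 0.08), followed by Sesn2 (-2.72 ± 0.11), Atf5 and Shmt2, and Ddit3 and Phgdh were closest (-0.75 ± 0.16 and -0.78 ± 0.17). All 10 were called lower under each of the 17 alternatives. Chac1 and Trib3, with the largest differences, had levels in D3RA, 3.58 to 8.22 CPM, that rest on few counts (11 to 58 per library).

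At day 6, Atf4, Trib3, Asns and Shmt2 were lower in D6RA than in D6DMSO, and the other 6 genes were not called. The median log2 difference was -0.34 for the 10 genes and -0.02 for all genes. Libraries of the 2 groups did not overlap for 9 of 10 members and for 80.3% of all genes. In a fit of the 6 day 6 libraries alone, where the spread is not shared with the shallower libraries, 9 members were called lower, and under voom weights and under quantile normalization 7 were. The 5 genes added in the first of these were Chac1, Sesn2, Psat1, Phgdh and Atf5, with log2 differences of -0.34, -0.19, -0.11, -0.34 and -0.24. Calls over all genes moved with the setting too. Over 15 alternatives, 7820 to 11413 of the 14717 genes were called in either direction, against 9678 in the main fit. That range covers all alternatives and both directions, so the counts of 9 and 7 have no share of all genes beside them. Quantile normalization also moved the median of all genes to -0.10.

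The treatment difference itself changed between the days. For 9 of 10 genes the difference at day 6 less that at day 3 was above 0 and called, beside 25.4% of all genes. It was largest for Chac1 (3.53 ± 0.23, adjusted p = 2.70e-09), Sesn2 (2.54 ± 0.16, adjusted p = 1.56e-09) and Asns (2.23 ± 0.11, adjusted p = 1.34e-10). Phgdh was the exception (0.45 ± 0.24, adjusted p = 0.138). Under each of the 21 alternatives 9 were called.

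**Figure D3:**
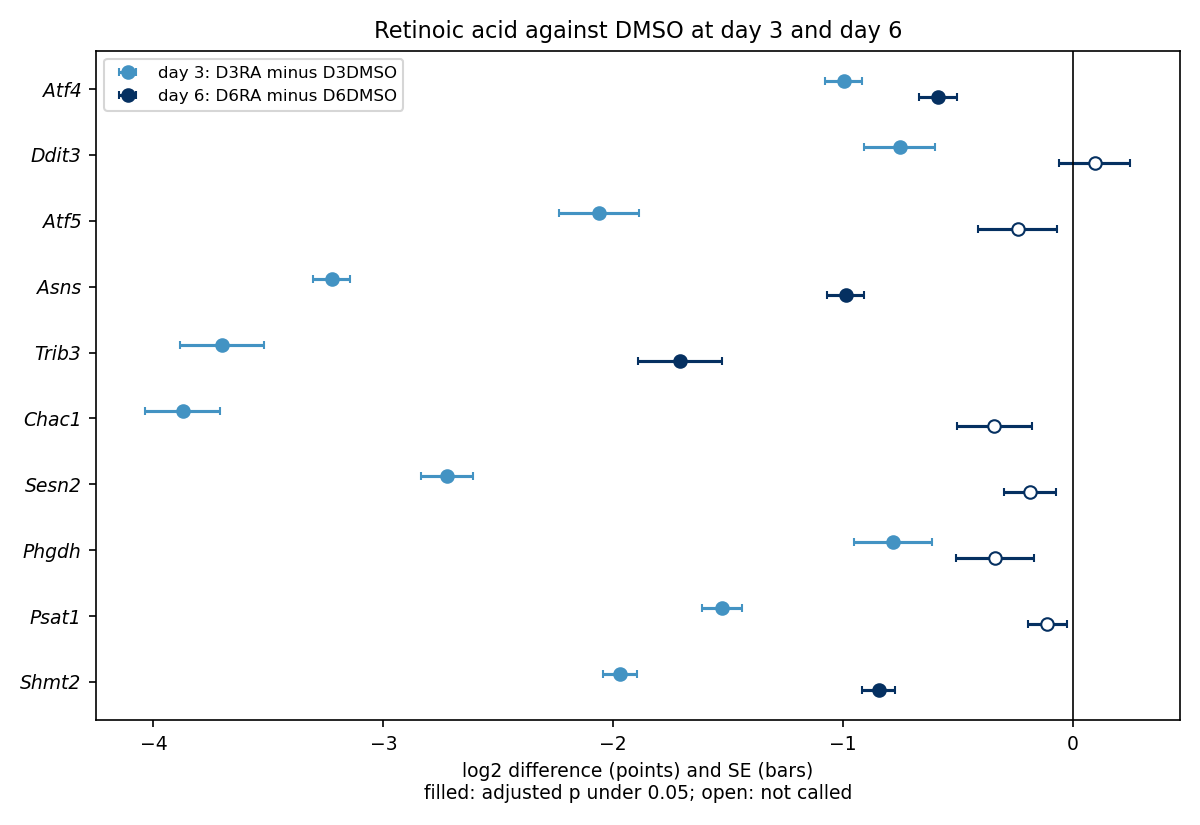
Log2 difference between retinoic acid and DMSO (horizontal axis) of each of the 10 genes (vertical axis) at day 3 (light blue) and day 6 (dark blue), with bars of 1 SE; filled points passed an adjusted p under 0.05. The day 3 points reach -3.87 for Chac1, and each day 6 point lies closer to 0 or, for Ddit3, just above it (0.09).

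Between the days, 9 of 10 genes were higher in D6RA than in D3RA, from 0.73 for Atf4 to 3.79 for Chac1, and Phgdh was not called (0.36 ± 0.17, adjusted p = 0.0721). Leaving out replicate 1 or 2 of D3RA gave Phgdh a call (0.48 and 0.45, adjusted p = 0.0324 and 0.0492), as did the replicate block (0.0417), and its difference spanned 0.15 to 0.48 over 15 alternatives (adjusted p 0.0324 to 0.417). The count of 9 stands beside 37.2% of all genes. With DMSO, 6 were higher and 2 lower in D6DMSO than in D3DMSO, beside 28.3% and 28.1% of all genes. Ddit3, Atf5, Sesn2 and Trib3 rose (1.21, 1.06, 0.96 and 0.83), as did Atf4 (0.32), and Asns fell (-0.47 ± 0.08, adjusted p = 1.03e-04). The calls of Psat1 (lower, -0.21 ± 0.09, adjusted p = 0.0464) and Shmt2 (higher, 0.23 ± 0.07, adjusted p = 0.0138) were lost under 8 and 6 of 15 alternatives, with adjusted p of 0.00867 to 0.144 and 0.00187 to 0.0809. For Psat1 these include leaving out D3DMSO replicate 1 or 3 or any 1 library of D6DMSO, and for Shmt2 leaving out D3DMSO replicate 2 or D6DMSO replicate 1 or 3. The mitochondrial counts given above changed along with the day and cannot be told apart from it.

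Upstream of ATF4 lie the 4 eIF2 kinases, eIF2, its exchange factor eIF2B and the phosphatase subunits that reset it. Of 14 such genes, 4 were higher and 6 lower in D3DMSO than in D0 (median log2 -0.18), and 9 were lower in D3RA (median -0.45), with the rest not called. For this and the lists that follow, the share of all genes called higher and lower was 28.2 and 27.8% in D3DMSO against D0, 35.0 and 33.9% in D3RA against D0, 30.7 and 31.4% between the treatments at day 3, and 32.6 and 33.1% at day 6. Eif2ak2, the kinase that senses double-stranded RNA, rose from 20.7 ± 2.1 to 30.6 ± 2.7 CPM in D3DMSO (mean ± SD, n = 3; log2 0.56) and was at 15.1 ± 0.81 CPM in D3RA. The largest falls in D3DMSO were of Eif2b5, of eIF2B, and the kinase gene Eif2ak1 (log2 -0.60 ± 0.07 and -0.49 ± 0.10). Ppp1r15a (GADD34), the inducible phosphatase subunit that ATF4 raises as feedback, was at 36.7 ± 4.6 CPM in D0, 50.6 ± 2.8 in D3DMSO and 26.6 ± 2.3 in D3RA, and between the treatments it was lower with retinoic acid at both days (log2 -0.93 and -1.14). Eif2ak3 (PERK), the kinase of the endoplasmic reticulum, was higher in D6RA than in D6DMSO (log2 1.12 ± 0.09). The phosphorylation of eIF2, through which these kinases act, was not measured.

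Other known targets of ATF4 were mostly higher in D3DMSO and mostly lower in D3RA. Of 19 measured, 13 were higher and 1 lower in D3DMSO than in D0 (median log2 0.45), 4 higher and 12 lower in D3RA (median -0.72), and 16 were lower in D3RA than in D3DMSO (median -1.98) with 2 higher. Jdp2, a bZIP factor, rose from 3.17 ± 0.31 to 20.8 ± 2.3 CPM in D3DMSO (log2 2.69 ± 0.12). In D3RA the largest falls from D0 were of Ndrg1 (41.6 ± 7.3 to 2.45 ± 1.5 CPM) and Ddit4 (102 ± 22 to 8.45 ± 2 CPM), an inhibitor of mTORC1; both are also known to respond to hypoxia. In the other direction, Clgn and Map1lc3b, a chaperone and an autophagosome protein, were higher in D3RA than in D3DMSO (log2 2.18 and 0.69). Clgn was near the floor, at 2.66 ± 1.7 against 0.51 ± 0.29 CPM. Map1lc3b was at 60.2 ± 10 against 37.1 ± 2.9 CPM. At day 6, 11 of the 19 were lower and 6 higher with retinoic acid, with Fam129a at 4.11 ± 0.052 against 29.2 ± 2.9 CPM and Eif4ebp1, a repressor of translation, at 82.8 ± 2.4 against 242 ± 7.8 CPM. Farthest in the other direction were again Clgn, still near the floor, and Map1lc3b (log2 1.89 ± 0.46 and 1.57 ± 0.11).

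The wider pathway of serine, glycine and one-carbon metabolism was divided. Of 20 genes, 6 were higher and 10 lower in D3DMSO than in D0 (median log2 -0.28), and 3 higher and 15 lower in D3RA (median -0.65). Known ATF4 targets are among the higher ones in D3DMSO. Aldh1l2, the mitochondrial 10-formyltetrahydrofolate dehydrogenase, rose from 6.39 ± 1.1 to 44.3 ± 5.3 CPM (log2 2.79 ± 0.13), and Psph, the last enzyme of serine synthesis, from 36.5 ± 1.1 to 85.5 ± 18 (log2 1.21 ± 0.11). Mthfd2, the mitochondrial methylene-tetrahydrofolate dehydrogenase, rose as well (93.5 ± 4.4 to 185 ± 18 CPM) and fell in D3RA to 50.7 ± 5.6 CPM. Cytosolic Mthfd1 fell from 612 ± 36 CPM to 166 ± 25 in D3DMSO and 89.9 ± 4.9 in D3RA, and Cbs, which draws on serine to make cystathionine, from 28.8 ± 1.6 CPM to 3.60 ± 1.6 and 5.32 ± 0.69. Between the treatments at day 3, 4 were higher and 9 lower in D3RA, or 7 and 8 without D3DMSO replicate 1. Mthfd2l, a close relative of Mthfd2, was at 41.0 ± 4.2 CPM in D3RA against 12.9 ± 2.8 in D3DMSO (log2 1.69 ± 0.13).

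Aminoacyl-tRNA synthetases of the cytosol load tRNAs with amino acids, and many but not all are raised by ATF4. In D3DMSO 7 of 20 were higher and 6 lower than in D0 (median log2 0.06), whereas in D3RA 18 were lower and 1 higher (median -0.71). Between the treatments, 17 were lower in D3RA than in D3DMSO and 15 lower in D6RA than in D6DMSO. Sars and Cars, for serine and cysteine, rose most in D3DMSO (log2 0.87 ± 0.07 and 0.86 ± 0.07), and Vars and Farsa fell (-0.83 ± 0.10 and -0.77 ± 0.08). Cars is also counted among the other targets of ATF4 above. Qars, for glutamine, was the one higher in D3RA than in D0 (log2 0.34 ± 0.07), and Mars fell most (-1.41 ± 0.08). Under quantile normalization 13 were higher and 3 lower in D3DMSO than in D0.

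Chaperones and folding enzymes controlled by ATF6 and XBP1, the other branches of the unfolded protein response, were mostly lower than D0 with either agent. Of 20, 14 were lower and 3 higher in D3DMSO than in D0 (median log2 -0.50), and 14 lower and 2 higher in D3RA (median -0.48). Between the treatments at day 3, 7 were higher and 4 lower in D3RA, with a median near 0 whose sign varied with the alternative (-0.03 to 0.04). At day 6, 18 were higher and 1 lower in D6RA than in D6DMSO (median 0.52). Calr, the lectin chaperone calreticulin, fell from 550.1 ± 54 to 236 ± 17 CPM in D3DMSO, and Sdf2l1 from 29.1 ± 3.6 to 11.9 ± 1.5 CPM. Ern1, which encodes the sensor IRE1, and Edem1, which helps dispose of misfolded glycoproteins, rose in D3DMSO (log2 0.89 ± 0.15 and 0.55 ± 0.10). In D6RA, Derl3 and Sdf2l1 were farthest above D6DMSO (log2 1.59 ± 0.34 and 1.44 ± 0.17).

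**Figure D4:**
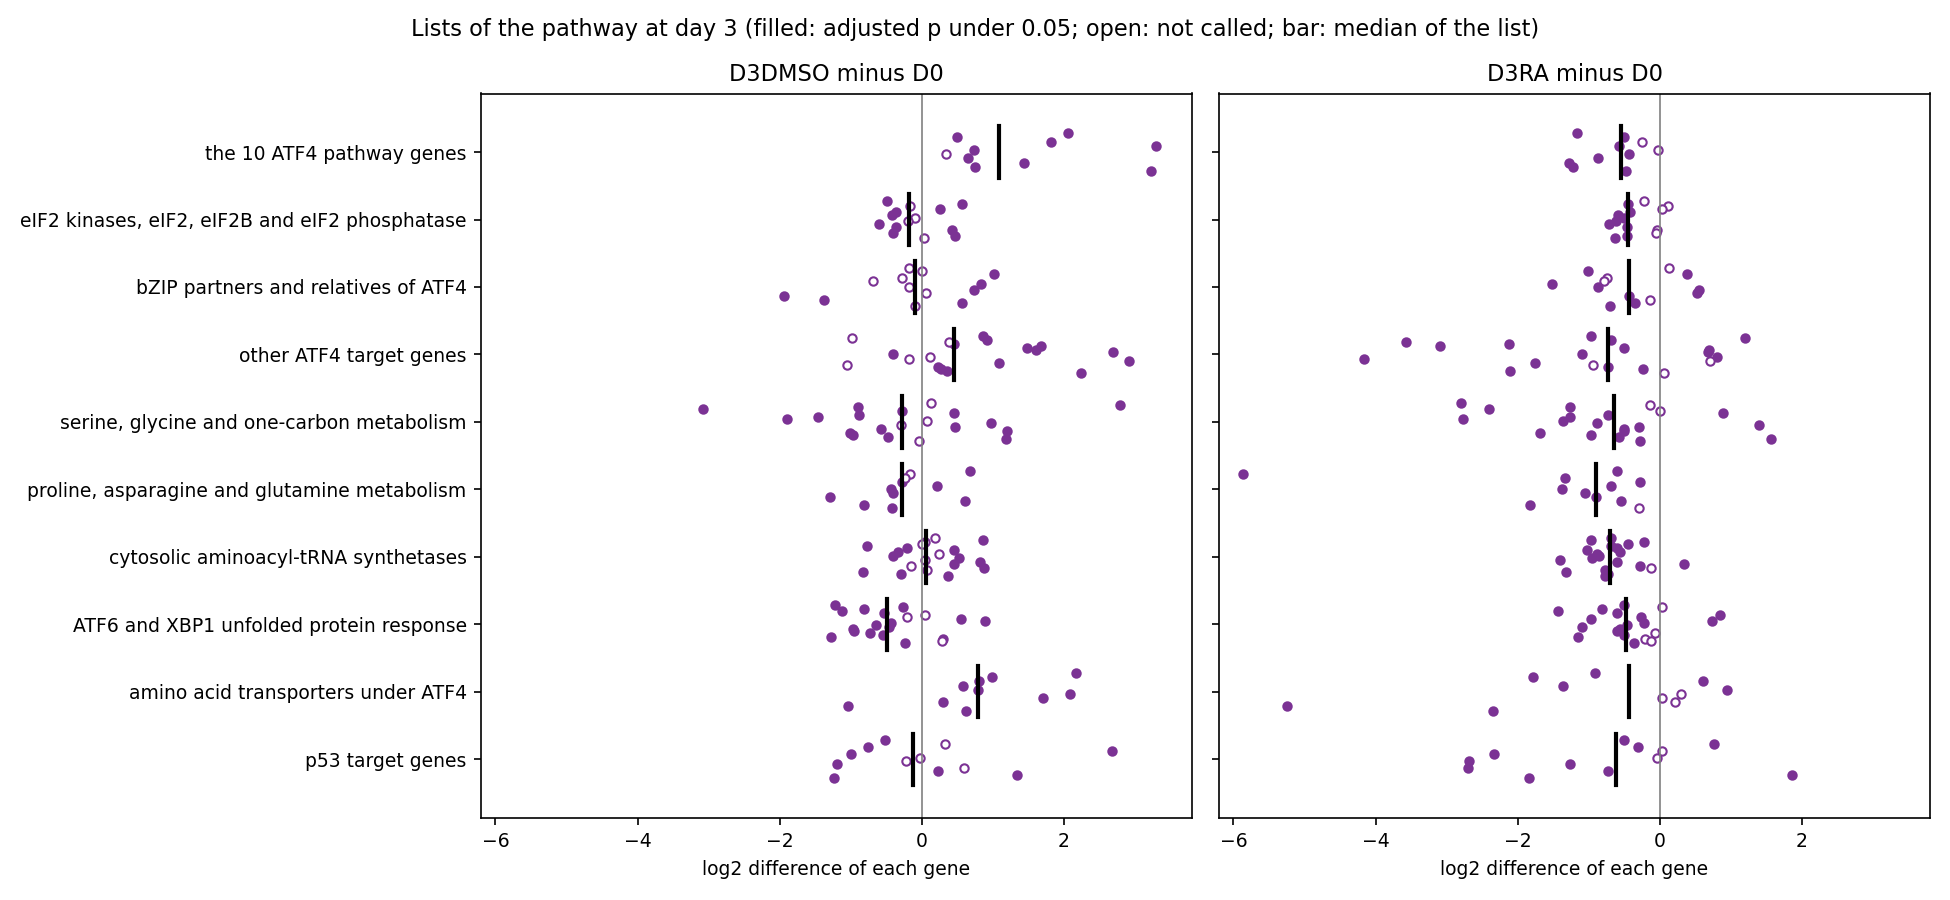
Log2 difference (horizontal axis) of each gene of the 10 and of 9 other lists (vertical axis) between D3DMSO and D0 (left) and D3RA and D0 (right). Filled points passed an adjusted p under 0.05 and the black bar is the median of a list, 1.09 and -0.54 for the 10 genes and -0.50 and -0.48 for the ATF6 and XBP1 genes.

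Of 10 amino acid transporters known to lie under ATF4, 9 were higher and 1 lower in D3DMSO than in D0, and 2 higher and 5 lower in D3RA (median log2 0.80 and -0.44). Between the treatments at day 3, 7 were lower in D3RA (median -1.86). Slc1a4, a carrier of serine and alanine, was at 68.5 ± 4.6, 309 ± 21 and 36.3 ± 1.8 CPM in D0, D3DMSO and D3RA. Slc7a3 was the one lower in D3DMSO than in D0 (log2 -1.04 ± 0.15). Slc43a1 and Slc38a2 were the 2 higher in D3RA than in D0 (0.95 ± 0.12 and 0.62 ± 0.10). At day 6, 2 were higher and 3 lower in D6RA than in D6DMSO, and 5 were not called (median -0.05). Slc7a11 was farthest above (2.17 ± 0.11) and Slc1a5 farthest below (-2.49 ± 0.11).

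Across the 15 libraries, the deposited log2 levels of the 10 genes correlated positively in each pair, with a Pearson r of 0.37 (Ddit3 and Phgdh) to 0.96 (Chac1 and Trib3) over 45 pairs and a median of 0.86. In the 9 libraries of D0 and D3 alone r was 0.67 to 0.99. Among 10476 other named genes, those with levels most like Atf4 were Pck2 (0.979), Mthfd2 (0.974) and Cpt1c (0.970), by Pearson r over 15 libraries. Pck2, which makes phosphoenolpyruvate in mitochondria, is on the list of other targets, and Mthfd2 on that of one-carbon genes. Most like Asns were Nars (0.995), Cftr (0.978) and Iah1 (0.972); Nars, the asparagine tRNA synthetase, was at 299 ± 16, 527 ± 27, 196 ± 10, 472 ± 10 and 335 ± 15 CPM in D0, D3DMSO, D3RA, D6DMSO and D6RA. For Phgdh the nearest were Tmem230 (0.898), Zswim3 (0.896) and Mrpl24 (0.881). These are descriptions, since the libraries fall into 5 groups and the genes share libraries, depth and scaling.

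Cell type markers differed along with the treatments. The 4 measured markers of pluripotent cells summed to 1441 to 1644 CPM per library in D0, and to 419 to 943 with DMSO and 2.37 to 6.39 with retinoic acid at day 3. The 3 measured markers of the primitive streak and mesoderm (T, Eomes and Tbx6) summed to 1005 to 1118 CPM in D3DMSO and 1.55 to 2.74 in D3RA, and the 6 of neural cells to 223 to 239 and 1095 to 1104 CPM. At day 6 the 5 markers of mesenchyme and smooth muscle summed to 477 to 566 CPM in D6DMSO and 12.0 to 15.9 in D6RA, the 5 of heart muscle to 39.3 to 67.2 and 1.75 to 1.92, and the 6 neural ones to 145 to 160.0 and 2289.6 to 2362. The 4 endothelial markers summed highest in D3RA (88.3 to 119.7 CPM, with 2.62 to 3.49 in D3DMSO, where Emcn was at 0 counts). Tnnt2 of heart muscle was at 0 counts in D3RA. The 3 measured markers of extraembryonic endoderm (Sox17, Dab2 and Sparc) summed to 297 to 326 CPM in D0 and, overlapping it, 269.8 to 303 in D6DMSO. Their sum was lower in D3DMSO (64.0 to 89.2 CPM), D3RA (107 to 122) and D6RA (89.4 to 105). Gene by gene, 1 of the 3 was called higher and 2 lower in D3DMSO than in D0, and likewise in D3RA. The part of these changes in cell makeup in the levels of the 10 genes was not tested.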

How the data were processed

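The authors deposited 1 table of log2 values for 14717 genes in 15 RNA libraries. The libraries came from ribosome-depleted total RNA with a stranded kit, per the labels' protocols, and the submitters' processing notes list FastQC 0.11.2, Trimmomatic 0.32, STAR 2.6.0c, featureCounts, edgeR, limma, Bowtie2 2.2.9, SAMtools 0.1.19 and mm9 without saying which made this table. The 18 chromatin immunoprecipitation samples were not used here.

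With the lowest value of each library taken as 0.5 counts, 100% of the values came out within 0.05 of a whole number; these recovered counts gave the CPM, scaled to library sizes that keep the ratios of the deposited scale. Symbols were matched for 14228 genes.

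The 5 groups entered 1 limma fit (version 3.58.1, R 4.3.3; variance trend, 10 residual degrees of freedom) of the authors' log2 values for every gene, with Benjamini-Hochberg adjustment; the script was tested on simulated counts. Alternatives were quantile and median-of-ratios scaling, a filter of 5 CPM in 3 libraries, an added count of 2, voom weights, no trend, the compared groups alone, a replicate block, thinning, and each library left out. A fit that left out the day 6 libraries, with and without the block, was added after the data were seen.

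Replicate numbers of the titles were checked for pairing by the correlation of deviations from the group means over 9083 genes. It was 0.33, 0.16 and 0.51 for D3DMSO with D0, and 0.45, 0.18 and 0.26 for D3RA with D3DMSO. For D3RA with D0 it was 0.21, 0.09 and 0.21, and for D6RA with D6DMSO -0.02, -0.14 and -0.01. The main fit held no replicate block, so its p-values do not use any pairing. The block entered only as an alternative.

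The members and lists were chosen with earlier results of these data known. All members are named. From each other list, genes whose higher group reached 1 CPM were named from the 2 highest and the 2 lowest called differences of a comparison. Values shown for such a gene in other comparisons, and those of Mthfd2 in D3DMSO and of Nars, were chosen after they were seen. The genes most like Atf4, Asns and Phgdh were the 3 with the highest r among those of 10 CPM or more in some group.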

Additional observations from a re-analysis of the deposited data

Results flagged for a closer look

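The difference between retinoic acid and DMSO was not the same at day 6 as at day 3 for 9 of the 10 genes, by the interaction term of limma. On the log2 scale, the day 6 difference less the day 3 difference was 3.53 ± 0.23 (adjusted p = 2.70e-09) for Chac1, 2.54 ± 0.16 (adjusted p = 1.56e-09) for Sesn2 and 2.23 ± 0.11 (adjusted p = 1.34e-10) for Asns. It was 1.99 ± 0.26 (adjusted p = 8.41e-06) for Trib3, 1.82 ± 0.24 (adjusted p = 1.13e-05) for Atf5 and 1.42 ± 0.12 (adjusted p = 7.28e-08) for Psat1. The smaller values were 1.12 ± 0.10 (adjusted p = 1.71e-07) for Shmt2, 0.85 ± 0.22 (adjusted p = 0.00447) for Ddit3 and 0.41 ± 0.12 (adjusted p = 0.00751) for Atf4. Of all genes, 25.4% were called higher in this test. With all libraries thinned to the smallest, 9 members were called too. The mitochondrial counts differ between the days and cannot be told apart from them.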

How the results depend on the processing

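Over 70 differences of a member in a comparison and 1170 values under alternatives, 1113 kept their direction and their side of the threshold, 31 lost the call, 20 gained it and 6 changed sign. The changes of sign were of differences that were not called: Ddit3 in D3RA against D0 (0.16 under voom weights, and between -0.24 and 0.10 with a library left out: 0.09 without D0 replicate 3, 0.09 without D3RA replicate 2 and 0.10 without D3RA replicate 3), Ddit3 between the treatments at day 6 (-0.018 under quantile normalization) and Phgdh between the days with DMSO (-0.21 to 0.14 with a library left out, the latter without D3DMSO replicate 1). Members called between D6RA and D6DMSO were 4, but 7 under quantile normalization, 7 under voom weights and 9 in the fit of these groups alone, all lower in D6RA; leaving out any 1 library kept the count at 4. Over all genes, 7820 to 11413 were called in that comparison over 15 alternatives, in either direction, against 9678 in the main fit. The share of all genes called lower under each of these settings is not given here. Quantile normalization moved the median of all genes to -0.10 there. With thinning, the interaction was called for 4717 genes of the table, against 7139; fewer counts were tested. With the replicate block, members called against D0 were 9 (D3DMSO) and 8 (D3RA), those between treatments 10 at day 3 and 4 at day 6, and those between days 10 (retinoic acid) and 8 (DMSO); in the fit of all libraries the block changed 1 call, that of Phgdh in D6RA against D3RA (adjusted p = 0.0417). Calls over all genes, in either direction, also varied between alternatives. Against D0 they spanned 5793 to 8408 (D3DMSO) and 8138 to 10296 (D3RA), and between treatments at day 3 6901 to 9287. Between the days they spanned 7936 to 10471 (retinoic acid) and 5986 to 9036 (DMSO). The smallest library is one of D3RA, where the low levels of Trib3 and Chac1 rest on the fewest counts.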

Other observations

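Among 11 genes of proline, asparagine and glutamine metabolism, 3 were higher and 6 lower in D3DMSO than in D0 (median log2 -0.28), and 10 lower in D3RA (median -0.90), with the other not called. Aldh18a1 and Pycr1, which make proline and are known ATF4 targets, rose in D3DMSO (log2 0.69 ± 0.06 and 0.61 ± 0.12).

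Of 13 bZIP factors that pair with ATF4 or resemble it, 4 were higher and 2 lower in D3DMSO than in D0, and 3 higher and 6 lower in D3RA. The list's median changed sign between alternatives in the first (-0.14 to 0.0085). Cebpb, a dimer partner of ATF4, was at 3.48 ± 0.4, 6.67 ± 3.4 and 1.09 ± 0.24 CPM in D0, D3DMSO and D3RA (log2 -2.35 ± 0.28 between the treatments), while Jun and Jund stood the other way, higher in D3RA than in D3DMSO (log2 1.51 ± 0.17 and 1.24 ± 0.22). Atf3 was lower in D6RA than in D6DMSO (log2 -2.03 ± 0.15).

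Sesn2 is also a target of p53. Of 12 p53 targets, 3 were higher and 5 lower in D3DMSO than in D0, and 2 higher and 8 lower in D3RA (median log2 -0.12 and -0.62). Between the treatments at day 3, 2 were higher and 6 lower in D3RA (median -0.34). Cdkn1a, the cell cycle inhibitor p21, was at 1.08 ± 0.27, 7.10 ± 0.16 and 1.04 ± 0.36 CPM in D0, D3DMSO and D3RA, higher in D3DMSO than in D0 (log2 2.68 ± 0.27) and lower in D3RA than in D3DMSO (-2.66 ± 0.27). Trp53inp1 was higher in D3RA than in D3DMSO (0.52 ± 0.08).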
